A study of Mus musculus with 20 samples.

Results

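The MHC class II presentation genes examined here were H2-Aa, H2-Ab1, H2-Eb1, H2-DMa, H2-DMb1, Cd74 and Ciita, 7 of the 25034 gene symbols carried by the arrays. They were found by name, as every probe annotated with 1 of these symbols in the scanner files, which gave 15 of 56605 probes. All 7 genes were bright enough to be tested in both comparisons of the study.

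RNA from mouse intestinal tissue was hybridised to 20 single-colour Agilent arrays, 1 array a sample. All mice were on the C57BL6/j background. The Cre control group (n = 6) carried VillinCreER/0 alone, and the BRAFV600E group (n = 6) carried VillinCreER/0 together with BrafV600E-LSL/+, a knock-in allele that makes the mutant kinase once Cre has removed a stop cassette. Both of these groups were 8 to 12 weeks old, received 2 mg tamoxifen daily for 3 days and were sampled 3 days after the last dose. The MEKi group (n = 4) was given PD184352, an inhibitor of the kinase MEK that acts below BRAF, and the Vehicle group (n = 4) its solvent. Both had 2 daily tamoxifen injections, each of 100 microlitres at 10 mg/ml, and then 3 daily injections of inhibitor or vehicle. The study's legends describe the MEKi and Vehicle animals as mice expressing mutant Braf, whereas the sample labels give their treatment but no genotype or age. The treatment text attached to all 20 samples describes an atorvastatin experiment and matches none of the groups. Because the Villin promoter is active in gut epithelium, recombination is limited to that layer, while the RNA came from the tissue as a whole. In such bulk RNA, fewer cells of a type and less RNA per cell cannot be told apart.

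MHC class II molecules are heterodimers that display peptides from endocytosed protein to CD4+ T cells. CIITA, the product of Ciita, is the coactivator that switches the whole gene group on, and interferon gamma induces it. B cells, dendritic cells and macrophages carry class II molecules, and so does the absorptive epithelium of the small bowel. H2-Aa and H2-Ab1 encode the alpha and beta chains of I-A, the class II molecule that C57BL/6 mice display, and H2-Eb1 encodes the beta chain of I-E, whose alpha chain gene H2-Ea is defective in this strain. Cd74 encodes the invariant chain, which escorts class II dimers to the endosome and blocks their groove. H2-DMa and H2-DMb1 encode subunits of H2-DM, which exchanges the remnant of the invariant chain for peptide.

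Class II promoters share an X box, bound by the RFX complex, and downstream of it a Y box, bound by NF-Y. The RefSeq promoter table (GRCm38.p6, 250 bases before to 50 after each gene start) held windows for 4 of the 7 genes, namely H2-Aa, H2-Eb1, H2-DMb1 and, with 2 starts, H2-DMa. A pair of the letters GNAAC, as an X box core, and TGATTGG, as a Y box, with 25 or 26 bases between them was searched on both strands. This spacing was set after the windows had been read. The stretches of the 3 members that held the pair are printed because this arrangement is what these promoters have in common. Each stretch gives the 150 bases before the start on the gene's strand, with both elements in capitals.

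H2-Aa (chr17:34287824-34287973, minus strand): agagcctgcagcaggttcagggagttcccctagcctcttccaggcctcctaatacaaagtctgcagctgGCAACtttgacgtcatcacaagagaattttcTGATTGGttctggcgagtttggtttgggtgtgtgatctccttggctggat
H2-Eb1 (chr17:34305717-34305866, plus strand): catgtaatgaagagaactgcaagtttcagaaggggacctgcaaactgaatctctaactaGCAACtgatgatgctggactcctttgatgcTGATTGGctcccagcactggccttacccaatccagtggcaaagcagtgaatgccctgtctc
H2-DMb1 (chr17:34153041-34153190, plus strand): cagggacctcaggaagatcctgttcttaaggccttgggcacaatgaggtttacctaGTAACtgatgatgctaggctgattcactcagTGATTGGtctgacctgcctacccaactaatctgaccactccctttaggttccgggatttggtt

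The Y box began 50 bases before the start in H2-Aa, 61 bases before it in H2-Eb1 and 63 bases before it in H2-DMb1. The pair occurred in 18 of 32851 windows of this length (0.055%), and TGATTGG alone in 2568 of them (7.82%). Because the spacing was set after the members' windows had been read, the share with the pair is a description and not a test. Among the other class II pathway genes, 2 of the 10 with a window held the pair, H2-Oa and H2-Eb2. Neither H2-DMa window held the letters TGATTGG.

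The level of a gene is given as the log2 processed intensity minus the 75th percentile of the same array, for the gene's brightest probe. A level can be compared between arrays for the same gene, not between genes, since probes differ in how brightly they bind. Between 60.8% and 76.8% of the spots on an array were well above background, no spot was saturated, and the 75th percentile of intensity lay between 540 and 1554. The arrays came from 3 slides. All 6 Cre control arrays shared slide 1 with replicates 1 and 2 of BRAFV600E. The other 4 BRAFV600E arrays lay on slide 2. The 8 MEKi and Vehicle arrays were on slide 3, of another design version, with each group in a row of its own. The spike-in slope, which the scanner software fits to added control RNAs, was 0 on the 4 arrays of slide 2, 0.759 to 0.843 on Cre control replicates 2, 3 and 5, and 1.02 to 1.08 on the rest. The mean signal of Y-linked genes was high (−1.34 to −0.99) on 3 of 6 Cre control, 4 of 6 BRAFV600E, 4 of 4 MEKi and 2 of 4 Vehicle arrays, and low (−6.28 to −4.95) on the others, although the methods describe equal numbers of males and females in the first experiment. Etv4, a transcription factor gene induced by ERK signalling and looked up as a check of the labels, was higher in BRAFV600E than in Cre control (log2 fold change 2.50, SE 0.27, adjusted p = 0.000186 in limma) and lower in MEKi than in Vehicle (−2.95, SE 0.23, adjusted p = 0.00319). Vil1, which encodes an actin bundler of gut epithelium, had a mean level of 6.97 in Cre control and 7.28 in Vehicle, far above the 75th percentile of the arrays.

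Of the class II transcripts, 4 were lower in BRAFV600E intestine than in Cre control. H2-Ab1, H2-Eb1, H2-DMa and H2-DMb1 fell, by between 0.78 and 1.23 on the log2 scale, with adjusted p of 0.0151 to 0.0271 in limma. These were 4 of the 7 genes, whereas 6.51% of the 19037 genes tested were called lower and 12.9% were called in either direction. H2-Aa, Cd74 and Ciita had differences of −0.68, −0.78 and −0.74 and did not pass the test. All 7 differences were below 0, as were 51.7% of those of all genes tested, and their median was −0.78 beside a median of −0.02 for all genes.

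Among the chains of the class II dimer, the beta chain genes separated the groups. H2-Ab1, the I-A beta chain, had a level that ranged in Cre control from 5.67 to 7.46 with a median of 6.09, and in BRAFV600E from 4.84 to 5.42 with a median of 5.07. Every Cre control array was thus above every BRAFV600E array, which was so in this direction for 3.26% of all genes tested. The log2 fold change was −1.12 (SE 0.26, adjusted p = 0.0177), a 2.17-fold lower level. H2-Eb1, the I-E beta chain, ranged from 4.98 to 6.05 (median 5.26) in Cre control and from 4.18 to 4.73 (median 4.55) in BRAFV600E, again without overlap. Its log2 fold change was −0.78 (SE 0.18, adjusted p = 0.0151). For H2-Aa, the I-A alpha chain, the ranges were 0.60 to 2.40 (median 1.13) and 0.16 to 0.87 (median 0.68). They overlapped, and the log2 fold change of −0.68 (SE 0.26) had an adjusted p of 0.0927 in limma.

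The H2-DM subunits fell together. H2-DMb1 ranged from 1.95 to 4.15 (median 2.81) in Cre control and from 1.01 to 2.02 (median 1.73) in BRAFV600E, with a log2 fold change of −1.23 (SE 0.32, adjusted p = 0.0271), the lowest of the 7. H2-DMa ranged from −0.27 to 0.73 (median 0.17) and from −0.87 to −0.02 (median −0.78), with a log2 fold change of −0.85 (SE 0.21, adjusted p = 0.0225). In both genes a single BRAFV600E array, replicate 4, reached into the Cre control range. The arrays also carried a close copy of H2-DMb1, H2-DMb2, whose own probe was too dim to be tested. Whether the H2-DMb1 probe also binds that transcript was not tested.

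Cd74 and Ciita were lower on average with more overlap. Cd74, the invariant chain, ranged from 4.84 to 6.47 (median 5.27) in Cre control and from 4.21 to 5.00 (median 4.54) in BRAFV600E, with a log2 fold change of −0.78 (SE 0.25, adjusted p = 0.0601). Ciita, the coactivator gene, ranged from 0.63 to 1.52 (median 1.04) in Cre control and from −0.69 to 1.01 (median 0.46) in BRAFV600E, with a log2 fold change of −0.74 (SE 0.29, adjusted p = 0.104). Ciita had the widest spread of the 7 within BRAFV600E (SD 0.67), where replicates 4 and 5 lay at 1.01 and replicate 6 at −0.69.

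**Figure D1:**
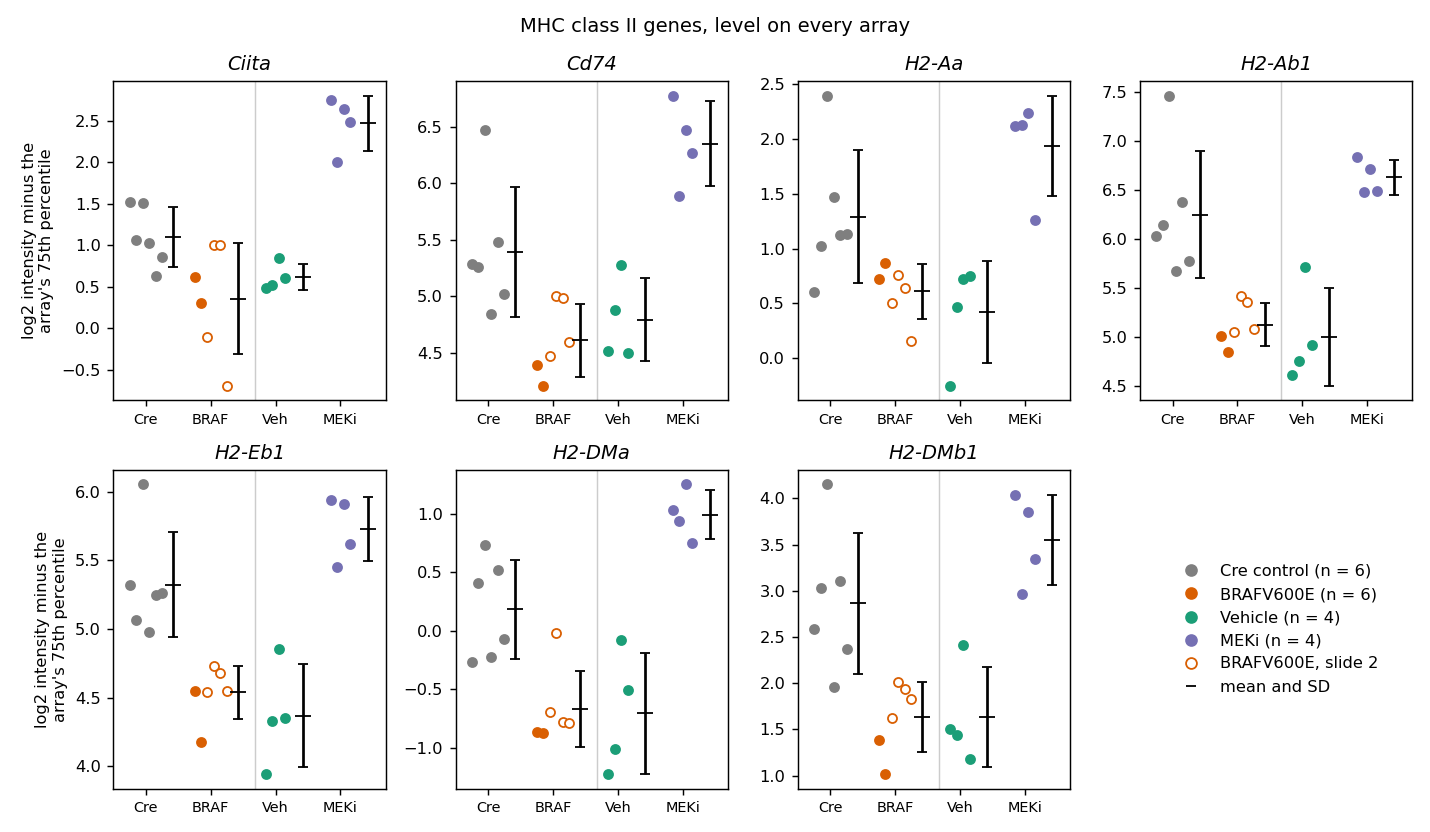
Level of each class II gene on every array (log2 intensity minus the array's 75th percentile), with 1 point an array and the mean and SD of each group beside it (Cre control and BRAFV600E n = 6, Vehicle and MEKi n = 4, open points for the BRAFV600E arrays of slide 2). Cre control replicate 3, at 7.46 for H2-Ab1, is the highest Cre control array in 6 of the 7 panels, and all MEKi points lie above all Vehicle points in every panel.

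The direction of these differences was steadier than the calls. Cre control replicate 3 was the highest of its group for every gene except Ciita, and without it 3 genes were called and the median log2 fold change was −0.66. Without Cre control replicate 2, 2 genes were called. Both arrays have a low spike-in slope. Without all 3 Cre control arrays of low slope, a choice made after seeing the data, limma called 0 members (4 at an unadjusted p under 0.05) and 445 genes in all, and the 7 differences ran from −0.78 to −0.44. H2-DMb1 was then at −0.67 and H2-DMa at −0.48. With all arrays kept and scaled, 7 members and 30.4% of all genes tested had an unadjusted p under 0.05. That share was not counted for the other settings. Within slide 1, where 6 Cre control arrays met 2 BRAFV600E arrays, all 7 differences were below 0 with a median of −1.05. There limma called 0 of them (6 at an unadjusted p under 0.05, adjusted p 0.0999 to 0.503). With slide as a fixed term, H2-Eb1 and H2-DMb1 stayed called. On arrays left unscaled the median of all genes was itself at 0.79, and limma called 0 members (0 at an unadjusted p under 0.05). The members' median was then 0.03, and relative to all genes −0.77, with H2-Aa, H2-Eb1, Cd74 and Ciita above 0. On the arrays of high Y-linked signal alone, again chosen after seeing the data, the median was −1.25, and 0 members were called by limma (6 at an unadjusted p under 0.05). The part of spike-in slope, slide and Y-linked signal in the result was not tested beyond these values.

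In mice given the MEK inhibitor, all 7 class II genes were higher than in mice given vehicle. Their log2 fold changes lay between 1.36 for H2-Eb1 and 1.92 for H2-DMb1, that is, 2.57-fold to 3.77-fold, and all passed the test in limma (adjusted p 0.00509 to 0.0455). Of the 19230 genes tested, 1.06% were called higher and 1.94% in either direction. All 7 differences were above 0, as were 54.4% of those of all genes tested. The groups of no member overlapped, and 6.35% of all genes tested were higher in MEKi without overlap. The median of the 7 was 1.62, beside 0.04 for all genes.

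Ciita, the switch of the group, had the smallest p of the 7 and stood at rank 25 of all genes tested. Its levels in Vehicle were 0.49, 0.52, 0.84 and 0.61, and in MEKi 2.76, 2.0, 2.64 and 2.49. The lowest MEKi array thus lay 1.16 above the highest Vehicle array. The log2 fold change was 1.86 (SE 0.18, adjusted p = 0.00509). Cd74, the invariant chain, measured 4.51, 4.88, 5.28 and 4.50 in Vehicle and 6.78, 5.89, 6.47 and 6.27 in MEKi, a log2 fold change of 1.56 (SE 0.24, adjusted p = 0.0236).

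The chains of the class II dimer rose by similar amounts. H2-Aa measured −0.25, 0.46, 0.72 and 0.75 in Vehicle and 2.12, 2.13, 2.24 and 1.26 in MEKi, a log2 fold change of 1.52 (SE 0.29, adjusted p = 0.0455). H2-Ab1 measured 4.61, 4.76, 5.72 and 4.92 in Vehicle and 6.83, 6.47, 6.71 and 6.49 in MEKi, a log2 fold change of 1.62 (SE 0.24, adjusted p = 0.0210). H2-Eb1 measured 3.94, 4.33, 4.85 and 4.35 in Vehicle and 5.94, 5.45, 5.91 and 5.62 in MEKi, a log2 fold change of 1.36 (SE 0.21, adjusted p = 0.0231). Vehicle replicate 3 was the highest Vehicle array for the beta chains, and MEKi replicate 4 stood apart, low, for H2-Aa.

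The H2-DM subunits followed the same pattern. H2-DMa measured −1.23, −1.01, −0.07 and −0.50 in Vehicle and 1.04, 0.94, 1.25 and 0.75 in MEKi, a log2 fold change of 1.70 (SE 0.26, adjusted p = 0.0211). H2-DMb1 measured 1.51, 1.44, 2.42 and 1.18 in Vehicle and 4.04, 2.96, 3.85 and 3.35 in MEKi, a log2 fold change of 1.92 (SE 0.33, adjusted p = 0.0299). Both transcripts were again highest among the Vehicle arrays in replicate 3. With 4 arrays a group, the 95% intervals of the 7 log2 fold changes reached from 0.84, the lower bound for H2-Aa, to 2.66, the upper bound for H2-DMb1.

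**Figure D2:**
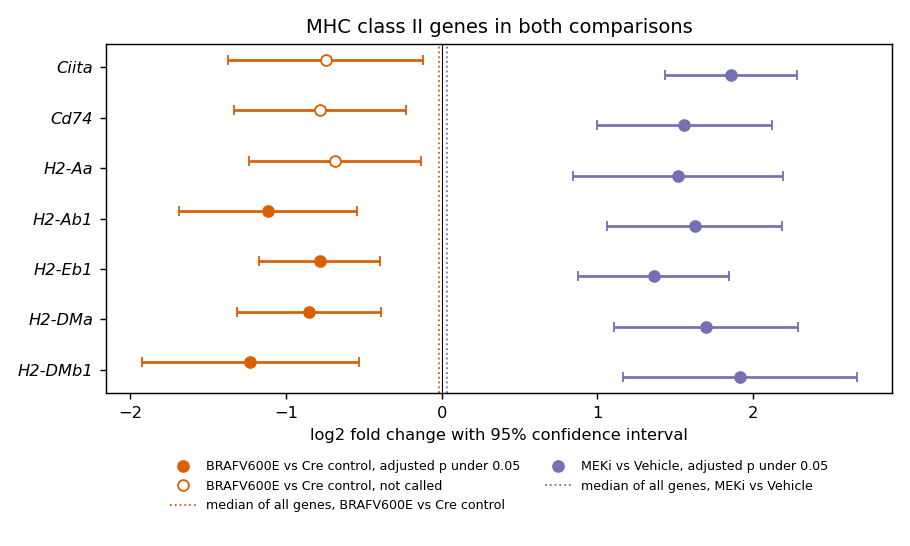
Log2 fold change of each class II gene with its 95% confidence interval from limma, BRAFV600E minus Cre control in orange and MEKi minus Vehicle in purple, filled where the adjusted p was under 0.05. All 7 orange points lie below 0, from −1.23 to −0.68, and all 7 purple points above it, from 1.36 to 1.92.

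All 7 genes were higher in MEKi under each of the 22 alternatives tried, with log2 fold changes of 1.22 to 2.18, but not all calls held. Leaving out 1 array at a time left between 1 and 6 genes called, with the lowest count, 1, without MEKi replicate 1, MEKi replicate 3 or Vehicle replicate 4, 2 without MEKi replicate 4 and 3 without Vehicle replicate 1. Ciita was called in all 8 of these. A covariate for Y-linked signal left 1 gene called, with values of 1.34 to 1.82. A covariate for the array's column on the slide left the values as they were and 0 genes called by limma (7 at an unadjusted p under 0.05, adjusted p 0.0519 to 0.143). With all arrays and no covariate, 7 members and 16.4% of all genes tested had an unadjusted p under 0.05. On the arrays of high Y-linked signal alone (4 MEKi, 2 Vehicle), a choice made after seeing the data, the values ran from 1.33 to 1.81 and limma called 0 (7 at an unadjusted p under 0.05). MEKi and Vehicle arrays lay in different rows of the slide, so row and treatment cannot be told apart. The 2 experiments were scanned apart on different design versions, and their values are given side by side with no test between them.

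Several genes had more than 1 probe, and these gave a check within the arrays. The 4 H2-Ab1 probes lay on chromosome 17 of mm9 (34404357-34404416, 34406059-34406118, 34406296-34406355 and 34406305-34406363, the last pair overlapping). Their log2 fold changes were −0.98, −1.12, −1.12 and −1.22 for BRAFV600E and 1.73, 1.67, 1.62 and 1.59 for MEKi. When every probe was tested on its own, where 9.60% and 0.935% of probes were called, all 4 were called in both comparisons. The standard error of each value lay between 0.24 and 0.28.

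Ciita is transcribed from several alternative promoters, and its 4 probes on chromosome 16 of mm9 were less alike. The brightest (10526458-10526517) gave −0.74 and 1.86, and the probe with the lowest coordinates (10492271-10492330) gave −0.59 and 1.86. A neighbour of the brightest probe (10525904-10525963) gave −0.60 (SE 0.26) and 1.23 (SE 0.41). The probe at 10512788-10512847 gave −0.01 (SE 0.59) and 0.13 (SE 0.38), and its signal passed background on just 4 of 6 Cre control, 3 of 6 BRAFV600E, 3 of 4 MEKi and 2 of 4 Vehicle arrays. Which Ciita transcript each probe reads was not tested. Additional probes of H2-DMa and H2-DMb1 were not well above background on nearly all arrays (1 of 20 and 0 of 20 exceptions) and were not tested.

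The remaining genes of the class II pathway passed the test in neither comparison. Of 12 such genes, 10 were tested for BRAFV600E and 9 for MEKi, and limma called 0 in each (2 and 0 at an unadjusted p under 0.05). Their median log2 fold changes were −0.12 and 0.22. This list held Ctss, Ctsl and Lgmn, endosomal proteases, Ifi30, a thiol reductase, H2-Oa and H2-Ob, subunits of the H2-DM antagonist H2-O, and Marchf1 and Marchf8, ligases that ubiquitinate class II. H2-DMb2 and H2-Ea were too dim to test in either comparison, and H2-Eb2 for MEKi. Of the 7 factors that bind class II promoters, the RFX and NF-Y subunits and Creb1, limma called 0 in each comparison (0 at an unadjusted p under 0.05), with medians of 0.18 and 0.09. Among all genes tested, 30.4% for BRAFV600E and 16.4% for MEKi had an unadjusted p under 0.05.

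Genes of the interferon gamma response, which include the known inducers of Ciita, were examined beside them. Of 9 signalling genes, Irf2, an interferon regulatory factor gene, rose in BRAFV600E (log2 fold change 0.74, SE 0.14, adjusted p = 0.00622), and was at 0.58 with the mean over all its probes, which limma did not call (adjusted p = 0.0614). The medians of this list were 0.11 for BRAFV600E and 0.22 for MEKi. Among 9 interferon gamma-inducible GTPases, Igtp, Gbp6 and Irgm1 rose in MEKi, by 2.69, 2.05 and 1.62, and Gbp2 and Gbp3 fell in BRAFV600E, by 0.82 and 0.74. Their medians were −0.32 and 0.97. Over the 29 other settings run for BRAFV600E, Gbp2 was called in 11 and Gbp3 in 25. Over the 22 run for MEKi, Igtp was called in 13, Gbp6 in 13 and Irgm1 in 14. Of 9 class I presentation genes, 5 rose in MEKi, among them the immunoproteasome genes Psmb8 (1.97) and Psmb9 (1.5) and the peptide transporter gene Tap1 (1.75), and Tap2 fell in BRAFV600E by 0.91. Their medians were −0.45 and 1.17. Tap2 was called lower in 19 of the 29 other settings. The mean level of the class I list ranged from 3.94 to 4.38 in Cre control. In BRAFV600E it was 3.14 and 2.92 on slide 1 and 3.91 to 4.19 on slide 2. The part of slide in these list values was not tested. Of 5 costimulation genes, limma called 0 in each comparison (2 at an unadjusted p under 0.05 in each), with medians of −0.33 and 0.31.

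Markers of leukocytes, some of which carry class II, were also lower in part in BRAFV600E. Of 45 markers tested in 6 lists, 7 were called lower and 0 higher. Among all genes tested, 6.51% were called lower and 6.4% higher. At an unadjusted p under 0.05 were 19 of the 45 markers, beside 30.4% of all genes tested. Of 6 pan-leukocyte markers limma called 0 (2 at an unadjusted p under 0.05), with a median of −0.41. Their mean level ranged from 1.63 to 1.91 in Cre control and from 1.11 to 1.80 in BRAFV600E. Of 8 macrophage markers, all below 0 (median −0.38), Csf1r and Cx3cr1 fell by 0.69 and 0.55, and the mean level of the list ranged from 1.01 to 1.73 and from 0.71 to 1.23. Of 7 dendritic cell markers tested, Cd209a and Itgax fell by 1.18 and 0.45 (median −0.11), with mean levels of −1.80 to −1.25 and of −1.90 to −1.44. The other 5 were not called and ran from −0.32 for Batf3 to 0.15 for Clec9a, with 2 above 0. Of 10 B cell markers, Pax5 fell by 0.64 (median −0.32), with mean levels of −2.63 to −2.05 and of −3.27 to −1.76. The defining B cell marker Ms4a1 differed by −1.53 (SE 0.48, adjusted p = 0.0527). Of 5 plasma cell markers limma called 0 (5 at an unadjusted p under 0.05, median −0.81), and of 9 T cell markers Cd3g and Cd8a fell by 0.98 and 0.84 (median −0.74). Above 0 were 2 of the 10 B cell markers and 2 of the 9 T cell markers. With the mean over all probes of a gene in place of the brightest, limma no longer called Itgax (−0.0054, adjusted p = 0.991), Cx3cr1 (−0.32, adjusted p = 0.306) or Cd8a (−0.57, adjusted p = 0.119). Over the 29 other settings run, Itgax was called in 8, Cx3cr1 in 13, Cd8a in 13 and Cd3g in 15. Ms4a1 and Csf1r were well above background on 6 of 6 arrays of each group, and Xcr1 was too dim to test. The part of these cell types in the lower class II levels of BRAFV600E was not tested.

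Between MEKi and Vehicle limma called 0 of the 44 leukocyte markers tested. At an unadjusted p under 0.05 there were 5, all of them T cell markers that were higher in MEKi. The share of all genes tested at that threshold was 16.4%. The pan-leukocyte, B cell, plasma cell, dendritic cell, macrophage and T cell lists had medians of 0.04, 0.21, −0.52, −0.05, 0.05 and 0.48. The mean level of the pan-leukocyte list ranged from 0.91 to 1.23 in Vehicle and from 0.58 to 1.44 in MEKi, that of the macrophage list from 0.69 to 1.08 and from 0.53 to 1.12, and that of the dendritic cell list from −2.20 to −1.98 and from −3.24 to −1.66. The B cell list ranged from −2.94 to −2.54 and from −2.98 to −1.47, and the T cell list from −0.44 to 0.17 and from −0.05 to 0.925. For the plasma cell list the ranges were 0.99 to 2.04 and −1.25 to 1.88. The mean over the 7 class II genes ranged from 1.94 to 2.82 in Vehicle and from 3.69 to 4.22 in MEKi, with no overlap. The part of these cell types in the higher class II levels of MEKi was not tested.

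Epithelial and smooth muscle markers were examined as well, though their RNA levels do not give the composition of the tissue. Of 8 epithelial markers, Krt19 and Cdh1 rose in BRAFV600E by 0.94 and 0.61 (median 0.32), and Krt19 fell in MEKi by 0.73 (median −0.20). Of 6 smooth muscle markers, Des and Actg2 rose in BRAFV600E by 0.94 and 0.71 (median 0.49), and limma called 0 in MEKi (0 at an unadjusted p under 0.05, median 0.63). With the mean over all probes of a gene in place of the brightest, Des was at −0.42. The part of these marker differences in the class II levels was not tested.

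**Figure D3:**
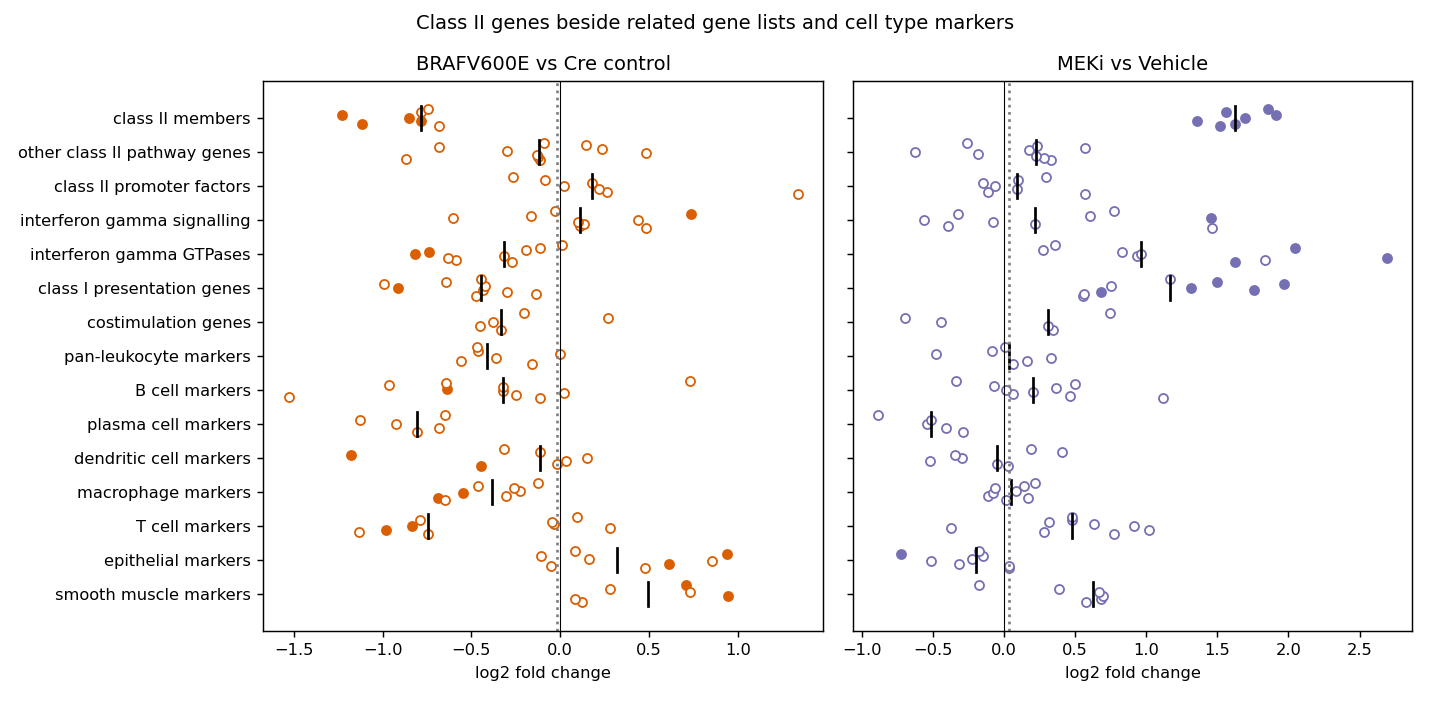
Log2 fold change of each tested gene in the class II group, in related gene lists and in cell type markers, with 1 point a gene, filled where the adjusted p was under 0.05, black bars at list medians and the dotted line at the median of all genes. In BRAFV600E against Cre control (left) the class II median of −0.78 lies beside plasma cell and T cell medians of −0.81 and −0.74, and in MEKi against Vehicle (right) the class II median of 1.62 lies beside medians of 1.17 for class I presentation, 0.97 for the GTPases, 0.48 for T cells and 0.04 for pan-leukocyte markers.

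Within groups, the class II genes varied together unevenly. After each group's mean was removed, the Pearson correlation over the 20 arrays averaged 0.63 across the 21 pairs of members, as a description. Cd74, H2-Ab1, H2-Eb1 and H2-DMb1 were the most alike, with r between 0.84 and 0.95, and the highest value was that of Cd74 with H2-DMb1. Ciita was the least alike, from 0.26 with H2-DMa to 0.49 with Cd74, and H2-Aa lay between 0.32 and 0.61. The arrays share slides and a common scaling, and Cre control replicate 3, on average 0.91 above its group's mean, had the highest such deviation. Without it the average was 0.50, the lowest value of any array left out. In the 8 arrays of slide 3 alone, Ciita correlated at 0.86 with Cd74 and at 0.84 with H2-DMb1, whereas over the 12 arrays of the other experiment these values were 0.41 and 0.22.

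**Figure D4:**
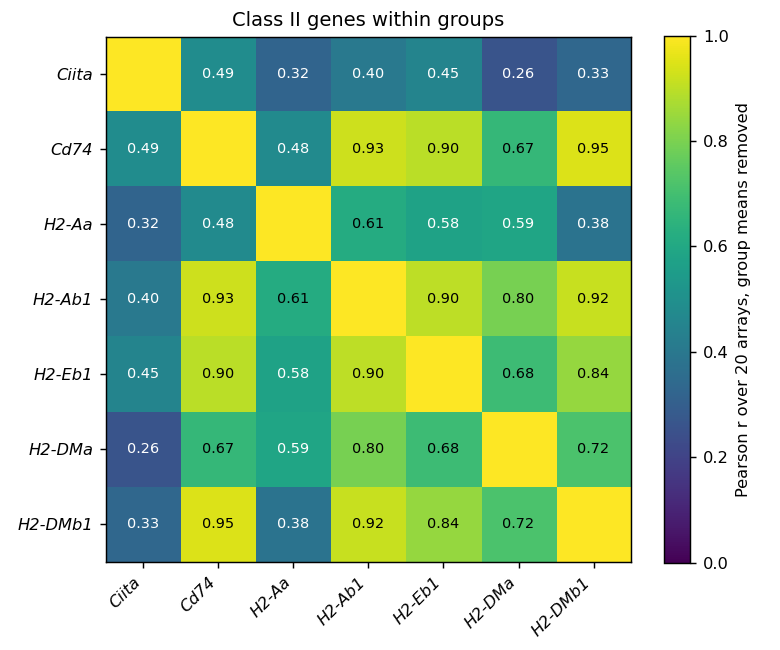
Pearson correlation between class II genes over 20 arrays after each group's mean was removed, with 1 cell a pair and colour from 0 to 1. Cd74, H2-Ab1, H2-Eb1 and H2-DMb1 form a block between 0.84 and 0.95, and the Ciita row lies between 0.26 and 0.49.

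Of 18567 other genes tested in both comparisons, the 10 whose within-group deviations were most like those of the members, by mean r, were Ilf2 (0.68), Siah1b (0.63), Amd2 (0.62), Stk35 (0.58), Cbx5 (0.58), Itga6 (0.57), Ncdn (0.57), Slc17a9 (0.57), Snhg16 (0.56) and 4933427D14Rik (0.56). limma called 0 of these in each comparison (adjusted p 0.341 or higher), and their log2 fold changes lay between −0.29 and 0.31. Among the genes of the lists above, the most alike were Tap2 (0.48), Derl3 (0.43) and Batf3 (0.42), named after their values were seen.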

How the data were processed

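Total RNA was labelled with Cy3, hybridised to Agilent mouse arrays and read with Agilent Feature Extraction 10.5.1.1 (per the labels). The deposited scanner files give for each spot a processed intensity, background-corrected by the authors' scanner software and not scaled between arrays, and quality marks under other columns. The deposited value table held the same intensities within 0.5%. Probe coordinates were those of the files (mm9). Log2 of each spot's intensity was taken, and spots that the scanner software marked as outliers (113 to 416 an array) were left out. The remaining spots of 1 probe were averaged and the 75th percentile of each array was subtracted. Probes were named through RefSeq (34023 of 56605 by accession, 9993 by symbol, 318 by synonym), and 12271 stayed unnamed. A gene was its brightest probe, tested where well above background on at least 6 of 12 or 4 of 8 arrays. Each comparison was fitted apart with limma 3.58.1 in R 4.3.3, two-sided, without covariates, with Benjamini-Hochberg adjustment over all genes tested and a call at 0.05. The scripts were tested on simulated data. The members and gene lists were chosen with earlier results of these data known. All 7 members are named, from each other list at most 3 called genes by smallest p in a comparison, and the 10 genes most alike; values for other genes, such as Etv4, Vil1 and Ms4a1, were added after they were seen. The values of some called list genes are not reported here. The methods describe separate mice and each array has its own identifier in the labels, which do not say that it is an animal's, so p-values measure the spread between these samples. Replicate numbers follow the order of deposit. The number of arrays limits the precision.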

Additional observations from a re-analysis of the deposited data

Results flagged for a closer look

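In 84 groups of 4 or 6 arrays (members, and mean levels of gene lists), 8 had a highest or lowest array far from the rest by Dixon's criterion, where chance gives about 1 in 20. H2-Aa was low in MEKi replicate 4 (1.26, the nearest array at 2.12). H2-Eb1 was high in Cre control replicate 3 (6.05, nearest 5.32) and low in BRAFV600E replicate 2 (4.18, nearest 4.54). H2-DMa was high in BRAFV600E replicate 4 (−0.022, nearest −0.69). Among mean levels of lists, the other class II pathway genes were high in BRAFV600E replicate 5 (1.69, nearest 1.31), and so were the B cell markers in the same array (−1.76, nearest −2.74). The interferon gamma GTPases were low in Vehicle replicate 2 (−1.25, nearest −0.98), and the class I presentation genes were low in MEKi replicate 2 (4.44, nearest 4.66).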

How the results depend on the processing

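In BRAFV600E against Cre control, where 4 members and 2459 genes were called, the other settings left 2 members called with slide as a fixed term (1568 genes), 0 within slide 1 (731), 0 without the 3 Cre control arrays of low spike-in slope (445) and 0 on arrays of high Y-linked signal (445), the last 2 added after seeing the data. Without scaling, 0 members and 9343 genes were called (9167 higher, 176 lower), and H2-Aa (0.13), H2-Eb1 (0.026), Cd74 (0.027), Ciita (0.067), Pax5 (0.17), Itgax (0.36), Gbp3 (0.071), Csf1r (0.12) and Cx3cr1 (0.26) turned above 0, with the median of all genes at 0.79. Normexp correction called 4825 genes (1595 higher, 3230 lower) and 5 members, median scaling 2392 (1739 higher, 653 lower) and 3, array weights 3856 and 6, and a fit of all 20 arrays 3513 and 6. Des was at −0.42 with the mean over probes. Leaving out 1 array gave 2 to 5 members and 1472 to 2950 genes. In MEKi against Vehicle, where 7 members and 374 genes were called, no scaling left 1 member (74 genes), the Y-linked covariate 1 (54), the array column 0 (11) and arrays of high Y-linked signal 0 (77). No filter gave 6 members (234 genes), every probe tested 6 (238), array weights 7 (1209), and 1 array left out 1 to 6 (76 to 370). Leaving out 1 array moved the mean correlation among members between 0.50 and 0.66. The cause of these changes was not tested. No paired analysis was possible because the labels give no replicate numbers shared between groups and state no litter or pair.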
